A study of Mus musculus with 18 samples.

Results

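The chemokine CXCL12, its receptors CXCR4 and ACKR3, and the cytokine MIF with its receptor CD74 were followed at the transcript level in injured mouse kidneys. The 5 genes *Cxcl12*, *Cxcr4*, *Ackr3*, *Mif* and *Cd74* were taken by name from the 45706 genes of the count tables, and all 5 were measured in all 18 kidneys. The *Cxcl12* cohort consisted of 5 KO and 3 control mice and the *Myc* cohort of 5 KO and 5 control mice, with 1 whole kidney sequenced from each. Every mouse was a C57BL/6 male (C57BL/6J for both floxed lines in the study's methods) of 10 to 12 weeks that carried the floxed gene of its cohort (F/F) and the Pax8rtTA transgene and was given doxycycline, and the kidneys were removed 12 h after 22.5 min of bilateral ischemia. KO mice carried TetOCre in addition, whereas their control littermates did not. Pax8rtTA acts in tubule cells, so that endothelial, stromal and blood cells of a KO kidney kept an intact gene. The gene counts summed all exons, and the excised exon is not given in the sources used here.

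CXCL12 is a secreted chemokine that draws cells carrying CXCR4, a G protein-coupled receptor found on many leukocytes and on endothelial cells. ACKR3, also called CXCR7, binds the same ligand but signals through arrestins, and it takes up and degrades CXCL12, which lowers the amount that reaches CXCR4. MIF is a cytokine that many cell types hold preformed. It binds CD74, the invariant chain of MHC class II, and can also act on CXCR4 as an alternative ligand.

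*Myc* lay between 26.6 and 37.0 CPM (counts scaled to the library size by the TMM method) in *Myc* KO and between 79.7 and 117 CPM in *Myc* control kidneys. The reads on genes numbered 12918220 in the shallowest kidney and 29749500 in the deepest. The share of unmapped reads was under 5% in 6 kidneys: *Cxcl12* KO 1 and 2, *Myc* KO 3 and 5, and *Myc* control 1 and 3. These were the most deeply sequenced kidneys, and no *Cxcl12* control kidney was among them. Of 15903 genes, 16.0% differed between them and the other 12 at an adjusted p under 0.05 by the quasi-likelihood test of edgeR, and *Mif* was the only member among these genes. The 8 tubule markers summed to between 6571 and 9522 CPM per kidney, whereas 4 B cell markers together reached at most 1.12 CPM.

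*Cxcl12* (ENSMUSG00000061353) lies on the plus strand of chromosome 6 of GRCm38 from 117168535 to 117181367. *Cxcr4* (ENSMUSG00000045382) lies on the minus strand of chromosome 1 from 128588199 to 128592293, and *Ackr3* (ENSMUSG00000044337) on the plus strand of the same chromosome from 90203980 to 90216751. *Mif* (ENSMUSG00000033307) lies on chromosome 10 from 75859353 to 75860240, and none of these 4 genes shared exon bases with another annotated gene. The pseudogene *Mif-ps3* had at most 2 reads per kidney.

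MYC, the transcription factor deleted in the *Myc* cohort, binds the E-box CACGTG, and the 250 bases before the annotated starts of the ligand and of its receptors are therefore shown (RefSeq sequences, GRCm38.p6, 5′ to 3′ on the strand of the gene). Capitals mark matches on either strand to CACGTG, to the hypoxia response cores ACGTG and GCGTG, to the cAMP response element TGACGTCA, to the palindrome of the factor NRF1 (the first capitals in *Cxcr4*), and to the TATA box TATAAA. The core ACGTG is contained in the E-box.
*Cxcl12* promoter (chr6:117168285-117168534, plus strand): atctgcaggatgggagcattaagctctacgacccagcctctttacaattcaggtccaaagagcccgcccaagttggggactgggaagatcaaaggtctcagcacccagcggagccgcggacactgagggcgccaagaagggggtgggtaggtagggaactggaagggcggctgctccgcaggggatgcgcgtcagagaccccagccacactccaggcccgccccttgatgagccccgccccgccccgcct
*Cxcr4* promoter (chr1:128592300-128592549, minus strand): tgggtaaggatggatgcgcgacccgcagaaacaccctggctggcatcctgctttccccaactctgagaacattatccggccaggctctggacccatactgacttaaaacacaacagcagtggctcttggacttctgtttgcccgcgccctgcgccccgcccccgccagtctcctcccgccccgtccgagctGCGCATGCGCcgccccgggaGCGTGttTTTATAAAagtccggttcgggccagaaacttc
*Ackr3* promoter (chr1:90203730-90203979, plus strand): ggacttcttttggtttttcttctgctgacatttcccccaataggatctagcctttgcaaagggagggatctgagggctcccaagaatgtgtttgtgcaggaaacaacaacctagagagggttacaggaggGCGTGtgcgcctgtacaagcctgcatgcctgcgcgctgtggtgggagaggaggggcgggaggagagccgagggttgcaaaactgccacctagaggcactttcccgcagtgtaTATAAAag

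No E-box lay in these windows or in that of *Mif*, while 6.02% of 32851 mouse promoters held at least 1 in a window of this length. The *Cxcr4* window held the NRF1 palindrome 59 bases before the start, which 0.782% of all promoters hold, and TATA box letters at 32 and 30 bases, which overlap on opposite strands. *Ackr3* had a TATA box 8 bases before its start. TATA box letters were in 12.4% of promoters, and GCGTG, which matched 1 time in each of these receptor genes, was in 28.2%. *Cxcl12* had none of the capitalised motifs but 5 matches to the GC box GGGCGG, which is left in lower case and which 32.7% of promoters hold. The *Mif* window (chr10:75860278-75860527, minus strand) held a cAMP response element 24 bases before the RefSeq start, and 1.55% of promoters hold one. For *Mif* and *Cxcr4* the RefSeq start lies outside the gene bounds given above, so that distances are from the edge of the window. A match describes letters and not a bound site.

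Levels of different genes were compared per kilobase of exon (RPKM, from the same TMM-scaled counts). *Cd74* was the most abundant member with 68.8 ± 21.2 RPKM (mean ± SD, n = 18), followed by *Mif* with 20.4 ± 3.4 RPKM and *Ackr3* with 14.1 ± 3.2 RPKM. *Cxcr4* had 6.89 ± 3.77 RPKM and *Cxcl12* had 5.22 ± 1.30 RPKM. *Cxcr4* varied most relative to its mean, from 4.26 to 26.4 CPM between kidneys. The panels of all kidneys show that its 4 group means rose from *Cxcl12* control over *Cxcl12* KO and *Myc* control to *Myc* KO.

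**Figure D1:**
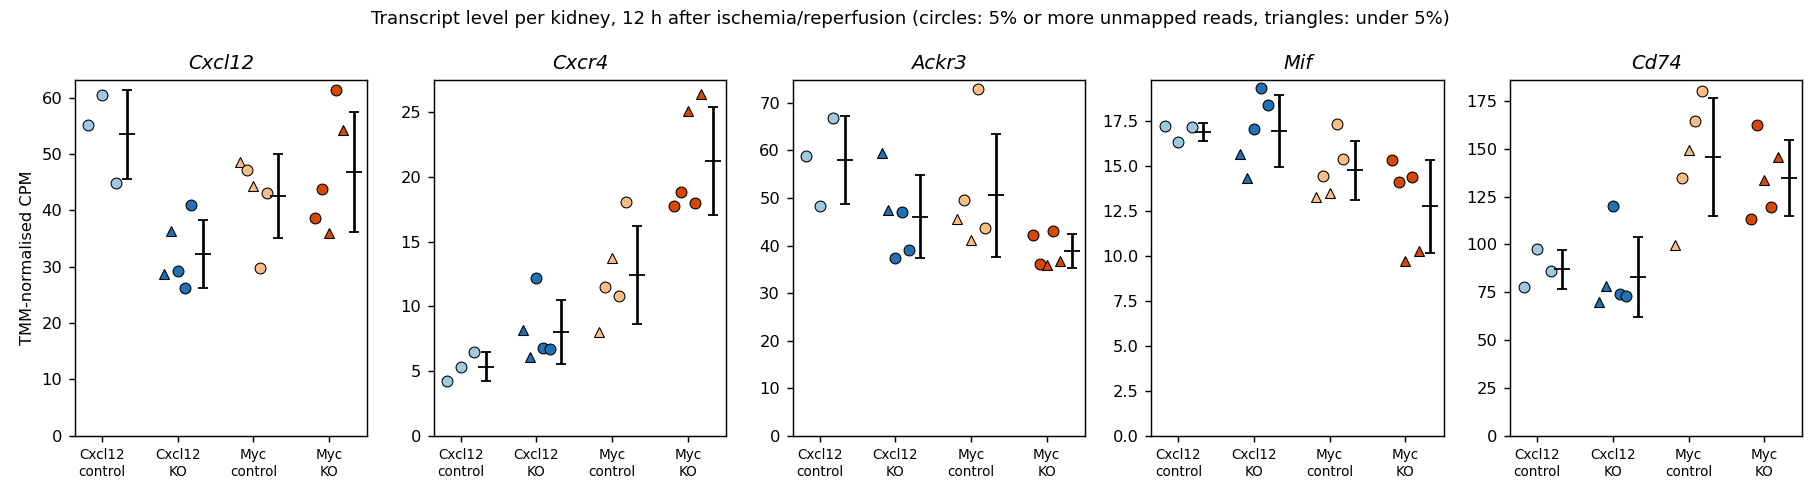
TMM-scaled CPM (y axes from 0) of the 5 genes in each kidney of the 4 groups, with group means ± SD as bars beside the points; triangles are the 6 kidneys with under 5% unmapped reads. All 5 *Cxcl12* KO kidneys lie below the 3 *Cxcl12* control kidneys for *Cxcl12*, and *Cxcr4* is highest in *Myc* KO kidneys, at 17.8 to 26.4 CPM.

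The ligand was examined first, in the cohort in which it was targeted. *Cxcl12* had 28.7, 36.3, 29.2, 26.3 and 40.9 CPM in *Cxcl12* KO kidneys 1 to 5 and 55.1, 60.5 and 44.9 CPM in the 3 control kidneys. The groups did not overlap, and the KO kidneys kept a mean of 32.3 ± 6.1 CPM (SD, n = 5) against 53.5 ± 7.9 CPM (SD, n = 3). In whole-kidney RNA, fewer cells of a type and less RNA per cell cannot be told apart, and neither can transcript from excised tubules and from cells outside the reach of Pax8rtTA. The log2 fold change of *Cxcl12* was -0.73 (standard error 0.15), a level 0.602 times that of control, with an adjusted p of 0.094 by the quasi-likelihood test of edgeR and of 0.0018 by DESeq2. The exact two-sided permutation p was 0.018, the smallest possible for 5 against 3 kidneys. In this cohort the edgeR test called 0 of 15154 genes (0.0%) at an adjusted p under 0.05, with 1976 genes (13.0%) at an unadjusted p under 0.05, while DESeq2 called 353 (2.38% of 14855) and limma voom 0. A separation of all KO kidneys below all control kidneys was seen for 4.72% of the genes tested.

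In the *Myc* cohort *Cxcl12* had 38.7, 43.8, 36.0, 61.3 and 54.3 CPM in the KO kidneys and 48.6, 47.1, 44.4, 29.8 and 43.0 CPM in the control kidneys. These groups overlapped, with means of 46.8 ± 10.7 and 42.6 ± 7.5 CPM (SD, n = 5 each). The log2 fold change of 0.14 (standard error 0.16) did not pass the test (adjusted p = 0.65, edgeR). The effects of the 2 deletions on *Cxcl12* differed by -0.87 (standard error 0.24) on the log2 scale, with an adjusted p of 0.13 by edgeR and 0.032 by DESeq2, in a test that called 0.0692% of 15903 genes with edgeR and 3.04% of 10661 with DESeq2. The difference between the deletions therefore passed with DESeq2 only. Between the groups, *Cxcl12* was lower in *Cxcl12* KO than in *Myc* KO kidneys by a log2 value of -0.54 (standard error 0.16, adjusted p = 0.031, edgeR). That call was lost without *Cxcl12* KO 1 or 4 or *Myc* KO 4 or 5, with adjusted p from 0.064 to 0.096. The control groups did not differ past the threshold (log2 difference 0.33, standard error 0.18, adjusted p = 0.36, edgeR).

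*Cxcr4*, the signalling receptor, had higher mean levels in the KO kidneys of both cohorts, but in neither did the difference pass the edgeR test. In *Myc* KO kidneys it had 17.8, 18.9, 25.1, 18.01 and 26.4 CPM, and in *Myc* control kidneys 8.02, 11.5, 13.8, 10.8 and 18.1 CPM. Only *Myc* control 5 reached into the range of the KO kidneys, and the means were 21.2 ± 4.2 and 12.4 ± 3.8 CPM (SD, n = 5 each). At a log2 difference of 0.78 (standard error 0.20), or 1.72 times the control level, the adjusted p was 0.068 by edgeR and 0.0059 by DESeq2 and the exact permutation p 0.024. It was larger than that of 99.0% of the 14936 genes tested, of which edgeR called 1.65% and DESeq2 8.76% of its 12906. The adjusted p of edgeR also fell below the threshold in the fit over all 18 kidneys (0.040, with 4.29% of genes called). It did so with a covariate for under 5% unmapped reads (0.048, with 6.39% called), and without *Myc* control 3 (0.045) or *Myc* control 5 (0.041). Within the kidneys of 5% or more unmapped reads the log2 fold change was 0.45 (standard error 0.19), and within those under 5%, with 2 kidneys in each group, it was 1.25 (standard error 0.26), while neither passed the test.

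In the *Cxcl12* cohort *Cxcr4* was sparser, with 77 to 186 reads per kidney. The KO kidneys had 8.19, 6.10, 12.2, 6.77 and 6.70 CPM and the control kidneys 4.26, 5.33 and 6.46 CPM. The groups overlapped, since *Cxcl12* KO 2 lay below the highest control kidney, and *Cxcl12* KO 3 stood above the rest. The log2 fold change of 0.57 (standard error 0.24, adjusted p = 0.37, edgeR) and the exact permutation p of 0.089 did not pass, and without *Cxcl12* KO 3 the log2 fold change was 0.37. The effects of both deletions on *Cxcr4* differed by -0.21 (standard error 0.33, adjusted p = 0.87, edgeR), so that a difference between the deletions was not detectable with this spread. The cohorts share no kidneys.

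**Figure D2:**
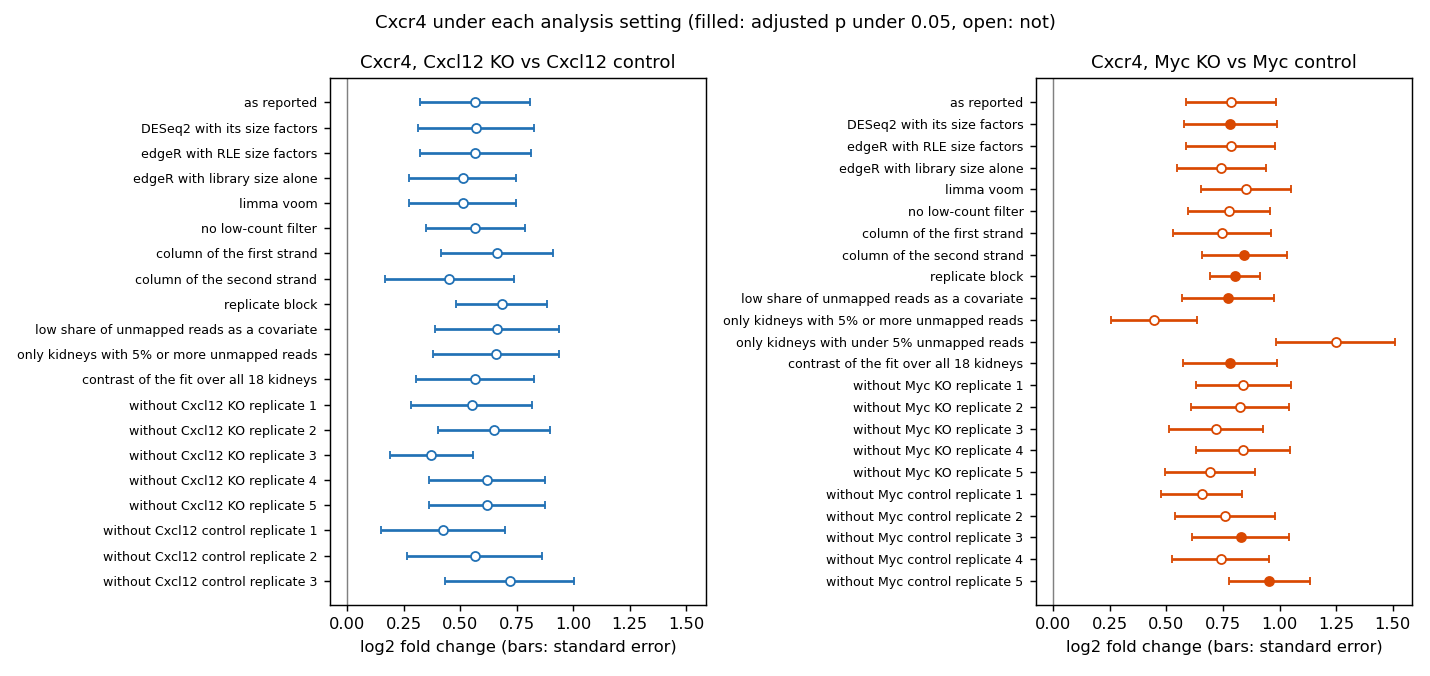
Log2 fold change of *Cxcr4* (x axis, with its standard error) between KO and control kidneys of the *Cxcl12* (left) and *Myc* cohort (right) under each analysis setting; filled points have an adjusted p under 0.05. All values are above 0, from 0.37 to 0.72 on the left and from 0.45 to 1.25 on the right, and the filled points are on the right.

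The differences of *Cxcr4* between the cohorts passed the test. The receptor was lower in *Cxcl12* control than in *Myc* control kidneys, by -1.21 on the log2 scale (standard error 0.26, adjusted p = 0.022, edgeR), without overlap. Between the KO groups the difference was -1.43 (standard error 0.21, adjusted p = 0.00053, edgeR), and all 5 *Myc* KO kidneys lay above all 5 *Cxcl12* KO kidneys. The edgeR test called 1.99% of 15903 genes between the control groups and 15.2% between the KO groups, and 12.1% and 10.2% of genes had no overlap. Of the 5 members, 2 were called between the control groups and 4 between the KO groups. The call between the control groups was lost without *Cxcl12* control 1 (adjusted p = 0.14, edgeR), *Cxcl12* control 2 (0.098) or *Myc* control 3 (0.055). The floxed gene, the litters and the handling of a cohort cannot be told apart in these comparisons.

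**Figure D3:**
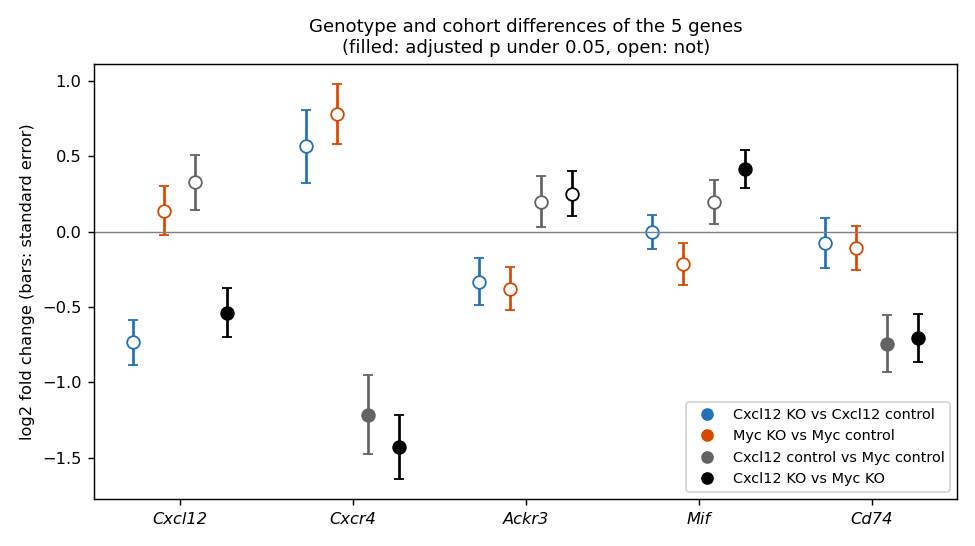
Log2 fold change with its standard error (y axis) of the 5 genes for the KO effect in each cohort, for *Cxcl12* control against *Myc* control and for *Cxcl12* KO against *Myc* KO; filled points have an adjusted p under 0.05 by edgeR. Filled points appear only in the comparisons between cohorts, where *Cxcr4* is at -1.21 and -1.43 and *Cd74* at -0.74 and -0.70.

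Neutrophil transcripts, and to a like degree those of other cell types, varied with *Cxcr4* without passing the adjusted test. The 5 neutrophil markers *S100a8*, *S100a9*, *Csf3r*, *Retnlg* and *Ly6g* summed to 17.3 to 23.7 CPM in *Cxcl12* control and 26.9 to 118 CPM in *Cxcl12* KO kidneys. In the *Myc* cohort they summed to 39.7 to 206 CPM in control and 124 to 234 CPM in KO kidneys. None of the 4 markers tested in each cohort passed the edgeR test there, *S100a8* having a log2 fold change of 1.74 (adjusted p = 0.19) in the *Cxcl12* cohort and 0.64 (adjusted p = 0.29) in the *Myc* cohort. A covariate for under 5% unmapped reads marked *Cxcl12* KO 1 and 2 and no *Cxcl12* control kidney. With it, *S100a8* and *S100a9*, the subunits of calprotectin, passed in the *Cxcl12* cohort. The log2 fold changes were 2.21 and 2.11 (adjusted p = 0.016 and 0.024, edgeR, with 0.812% of genes called). Without those 2 kidneys they were 2.21 and 2.10 (adjusted p = 0.023 and 0.049, edgeR). Both genes also passed without a low-count filter (adjusted p = 0.025 and 0.032, edgeR). Neither passed with DESeq2 (adjusted p = 0.070 and 0.10) or limma voom (0.36 and 0.35). After the group means were removed, *Cxcr4* and the summed neutrophil markers had a Pearson r of 0.60 (permutation p = 0.031) and a Spearman rho of 0.56 (permutation p = 0.034) over 18 kidneys, with r = 0.53 without the 2 kidneys farthest from the median of *Cxcr4*. This r was 0.50 among the 12 kidneys of 5% or more unmapped reads and 0.78 among the other 6. Its adjusted p was 0.34 over 40 relations of 5 members with 8 marker lists, and it did not pass. Between the control groups, *S100a8* and *S100a9* were lower in *Cxcl12* control kidneys, by -2.51 (adjusted p = 0.021, edgeR) and -2.40 (adjusted p = 0.025). Neither passed with limma voom (adjusted p = 0.082 and 0.070). These 2 of the 5 neutrophil markers were called there, beside 1.99% of all genes. Each call held in 14 of 18 fits without 1 kidney. Between the KO groups 4 of the 5 neutrophil markers were called, all lower in *Cxcl12* KO kidneys, beside 15.2% of all genes. The r of *Cxcr4* with the sums of other lists was 0.57 for podocyte markers (permutation p = 0.047), 0.52 for tubule markers (permutation p = 0.060, with rho = 0.53 and permutation p = 0.046) and 0.52 for endothelial markers (permutation p = 0.058), each with an adjusted p of 0.34 for r. The 6 endothelial markers *Pecam1*, *Cdh5*, *Kdr*, *Emcn*, *Tek* and *Ptprb* summed to 540 to 579 CPM in *Cxcl12* control, 501 to 697 in *Cxcl12* KO, 525 to 841 in *Myc* control and 677 to 966 CPM in *Myc* KO kidneys. None of the 6 passed the edgeR test in either cohort, the log2 fold changes in the *Myc* cohort lying between -0.11 and 0.57, while between the KO groups 5 of the 6 were called lower in *Cxcl12* KO kidneys, where 15.2% of all genes were called. The part of neutrophils, endothelial cells and the other cell types in the differences of *Cxcr4* was not tested.

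*Ackr3*, the scavenging receptor, had lower mean levels in the KO kidneys of both cohorts and did not pass the test in either. The *Myc* KO kidneys had 42.2, 36.1, 35.9, 43.2 and 36.7 CPM and their controls 45.5, 49.6, 41.1, 73.0 and 43.7 CPM. Every *Myc* KO kidney was below the control mean of 50.6 ± 12.9 CPM (SD, n = 5), although 2 lay above the lowest control kidney. KO and control differed by -0.38 on the log2 scale (standard error 0.14, adjusted p = 0.16, edgeR; exact permutation p = 0.032), and it was -0.21 without *Myc* control 4, the kidney with 73.0 CPM. In the *Cxcl12* cohort the KO kidneys had 59.4, 47.5, 37.3, 47.0 and 39.1 CPM and the controls 58.9, 48.3 and 66.7 CPM. The ranges overlapped through *Cxcl12* KO 1, giving a log2 value of -0.33 (standard error 0.15, adjusted p = 0.39, edgeR; exact permutation p = 0.11). Without the 2 kidneys under 5% unmapped reads it was -0.51 (standard error 0.14, adjusted p = 0.17, edgeR). *Ackr3* did not pass between the control groups (log2 difference 0.20, adjusted p = 0.58, edgeR) or between the KO groups (0.25, adjusted p = 0.26).

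Per kilobase of exon, *Ackr3* transcript exceeded *Cxcr4* transcript in all 13 kidneys outside the *Myc* KO group, and the ratio of both receptors ran from 0.751 to 7.47. *Ackr3* was 4.90 to 7.47 times *Cxcr4* in *Cxcl12* control kidneys, 1.65 to 4.21 times in *Cxcl12* KO, 1.30 to 3.66 times in *Myc* control and 0.751 to 1.29 times in *Myc* KO kidneys. In each cohort the KO kidneys had lower ratios than every control kidney, although in the *Myc* cohort the highest KO ratio, 1.29, all but met the lowest control ratio, 1.30. The ratio of *Cxcr4* to *Cxcl12* was 0.350 to 0.650 in *Cxcl12* control and 0.741 to 1.89 in *Cxcl12* KO kidneys, where the targeted gene is the denominator. In the *Myc* cohort it was 0.746 to 1.90 in control and 1.33 to 3.16 in KO kidneys, which overlapped. These ratios of transcripts were formed after the values had been seen, are given without a test, and say nothing of receptor protein. How often the ratios of other gene pairs separate KO from control kidneys as fully was not examined.

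**Figure D4:**
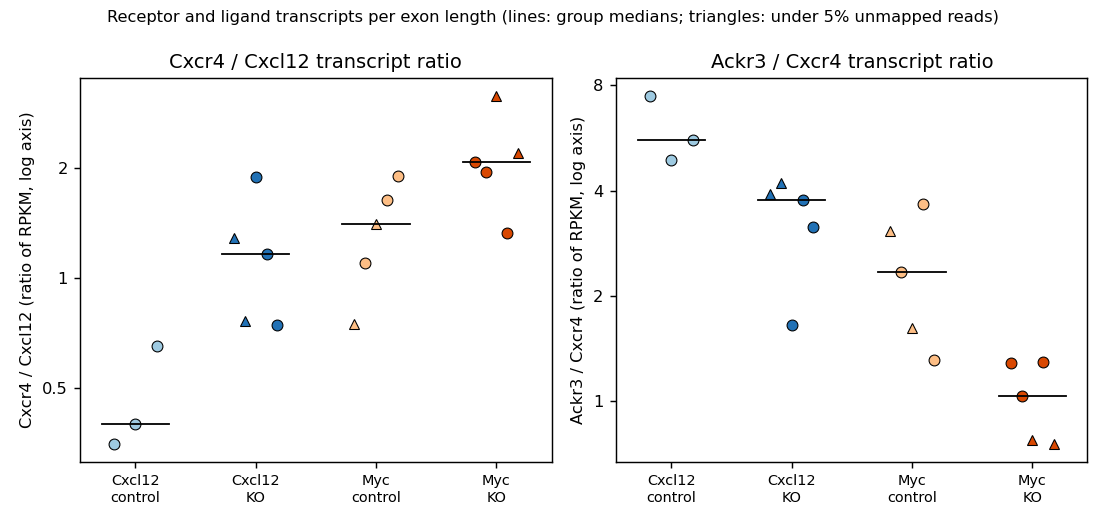
Ratio of length-normalised transcript levels (RPKM, log axes) of *Cxcr4* to *Cxcl12* and of *Ackr3* to *Cxcr4* in each kidney, with lines at the group medians; triangles are kidneys with under 5% unmapped reads. The median *Ackr3* to *Cxcr4* ratio was 5.58 in *Cxcl12* control, 3.75 in *Cxcl12* KO, 2.34 in *Myc* control and 1.03 in *Myc* KO kidneys.

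*Mif*, the alternative ligand, had nearly the same mean in both *Cxcl12* groups. It had 15.7, 14.3, 17.0, 19.3 and 18.4 CPM in *Cxcl12* KO and 17.2, 16.3 and 17.2 CPM in the control kidneys, with means of 17.0 ± 2.0 and 16.9 ± 0.5 CPM (SD, n = 5 and 3). The difference on the log2 scale was -0.0020 (standard error 0.11, adjusted p = 0.996, edgeR). In the *Myc* cohort it had 15.3, 14.1, 9.69, 14.4 and 10.3 CPM in KO and 13.3, 14.4, 13.5, 17.3 and 15.4 CPM in control kidneys. These ranges overlapped as well (log2 fold change -0.21, standard error 0.14, adjusted p = 0.39, edgeR). *Mif* was higher in *Cxcl12* KO than in *Myc* KO kidneys by 0.42 (standard error 0.13, adjusted p = 0.034, edgeR), a call that was lost without *Cxcl12* KO 4 or 5 or *Myc* KO 3 or 5 (adjusted p from 0.074 to 0.095).

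The level of *Mif* differed between the kidneys under 5% unmapped reads and the others. The kidneys under 5% were also the deepest, with at least 22437067 reads on genes against at most 18006784 in the other 12. The share of unmapped reads and the depth therefore cannot be told apart here. In each of the 3 groups that held kidneys under 5%, those 2 kidneys had the lowest *Mif*: 14.3 and 15.7 CPM against at least 17.0 in *Cxcl12* KO, 9.69 and 10.3 against at least 14.1 in *Myc* KO, and 13.3 and 13.5 against at least 14.4 in *Myc* control. With the group means removed, these kidneys differed from the others by -0.35 on the log2 scale (standard error 0.067, adjusted p = 0.0013, edgeR), in a comparison added after the data had been seen. *Cd74* differed by -0.17, *Ackr3* by -0.041, *Cxcl12* by 0.051 and *Cxcr4* by 0.0050, and none of these passed (adjusted p from 0.40 to 0.99). The genes most like *Mif* from kidney to kidney were *Gm6652*, *Ndufs6*, *Gm1840*, *Gm6170* and *Gm8566*, with r from 0.92 to 0.93 over 18 kidneys after the group means were removed. Among the kidneys of 5% or more unmapped reads alone, r with these genes was lower, from 0.71 to 0.85. *Ndufs6* encodes a subunit of complex I of the respiratory chain. Over all 18 kidneys, 276 of 13767 genes had an r over 0.8 with *Mif*, against 6 to 30 for each other member.

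*Cd74* (ENSMUSG00000024610), the MIF receptor, lies on chromosome 18 from 60803848 to 60812652 and shared 12 exon bases with the microRNA gene *Mir5107*, which had at most 1 read per kidney. It did not pass the test for either deletion. It had 70.0, 78.4, 120, 73.9 and 72.8 CPM in *Cxcl12* KO kidneys, of which *Cxcl12* KO 3 stood apart, and 77.5, 97.6 and 86.0 CPM in the controls. This gave a log2 fold change of -0.075 (standard error 0.17, adjusted p = 0.88, edgeR). The *Myc* KO kidneys had 113, 162, 134, 119 and 146 CPM and their controls 99.9, 135, 149, 165 and 180 CPM, all within overlapping ranges (log2 fold change -0.11, standard error 0.15, adjusted p = 0.70, edgeR). Between the cohorts the level differed, as that of *Cxcr4* did. *Cd74* was lower in *Cxcl12* control than in *Myc* control kidneys, without overlap, by -0.74 (standard error 0.19, adjusted p = 0.046, edgeR), and lower in *Cxcl12* KO than in *Myc* KO kidneys by -0.70 (standard error 0.16, adjusted p = 0.0089), with overlap through *Cxcl12* KO 3. The first of these calls was lost with limma voom (adjusted p = 0.051, with 1.57% of genes called) and in 10 of 18 fits without 1 kidney, which were those without each *Cxcl12* control, *Myc* control 2, 3, 4 or 5, *Cxcl12* KO 2, or *Myc* KO 3 or 4 (adjusted p from 0.055 to 0.21). The second held in all 18 such fits.

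*Cd74* varied together with the MHC class II chains that its product escorts. *H2-Eb1* (r = 0.97), *H2-Aa* (r = 0.95) and *H2-Ab1* (r = 0.94) were the 3 genes most like it among 13767, followed by *Foxd2* and *Ctsd* with r = 0.85 and 0.84 over 18 kidneys with the group means removed. The peptide-loading factors *H2-DMa* and *H2-DMb1* had r = 0.84 with *Cd74*, and *Ciita*, the master regulator of class II genes, 0.59 at a mean of only 1.55 CPM. *Lgmn* and *Sppl2a*, the most abundant genes of the class II list with means of 997 and 148 CPM, encode proteases that are not confined to antigen-presenting cells and had r = -0.20 and -0.46. None of the 10 list genes tested passed in either cohort, 8 of 10 having lower fitted levels in KO kidneys in each, with median log2 fold changes of -0.033 in the *Cxcl12* cohort and -0.26 in the *Myc* cohort, beside medians over all genes of 0.00083 and -0.00083. Between the control groups, *H2-Aa* and the invariant chain protease *Ctss* were lower in *Cxcl12* control kidneys, by -1.03 (adjusted p = 0.041, edgeR) and -0.89 (adjusted p = 0.018), as 2 of the 12 list genes tested there, beside 1.99% of all genes. *H2-Aa* did not pass with limma voom (adjusted p = 0.059). Its edgeR call held in 9 of 18 fits without 1 kidney, with adjusted p up to 0.19. That of *Ctss* held in 15 of them, with adjusted p up to 0.095. Between the KO groups, 3 of the 12 list genes (*H2-Aa*, *H2-Eb1* and *Ctss*) were called lower in *Cxcl12* KO kidneys. The other way, 2 (*Lgmn* and *Ifi30*) were called higher there, beside 15.2% of all genes.

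**Figure D5:**
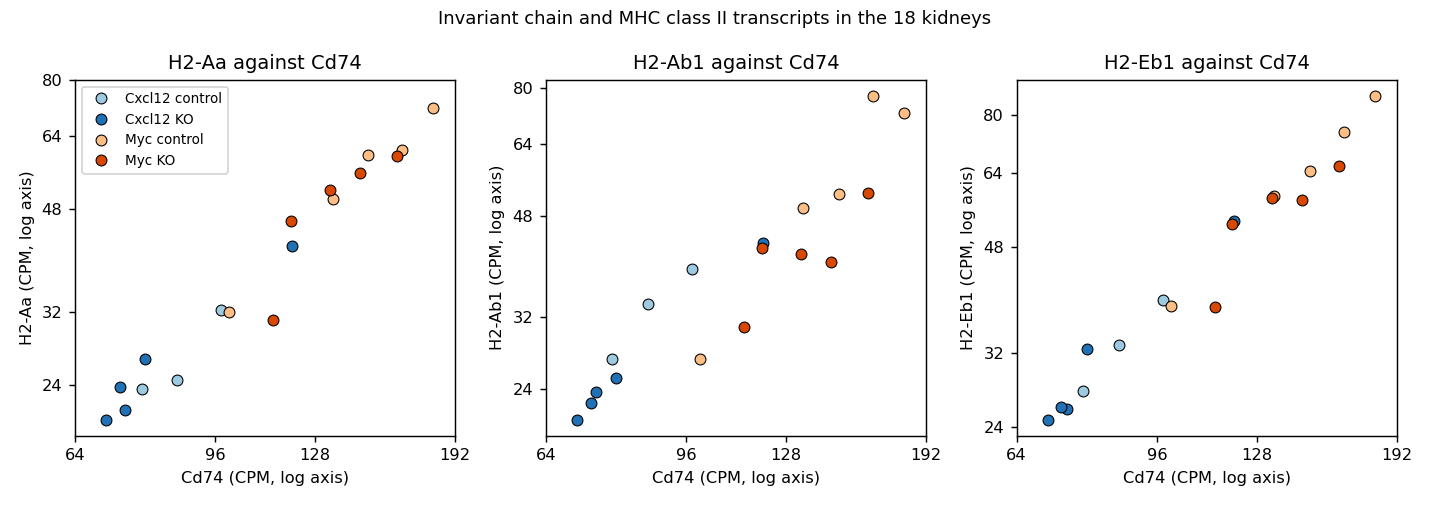
Levels of *H2-Aa*, *H2-Ab1* and *H2-Eb1* (y axes, CPM, log scale) against *Cd74* (x axes, CPM, log scale) in the 18 kidneys, coloured by group. All 3 class II genes rise with *Cd74*, whose r with them lies between 0.94 and 0.97 after group means are removed, and *Cxcl12* KO 3, at 120 CPM of *Cd74*, lies among the *Myc* kidneys.

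No relation of *Cd74* with the summed markers of cells that usually carry class II passed the test. Within the macrophage and dendritic cell list, *Csf1r* and *Cd68* had means of 27.3 and 18.3 CPM. *Itgax* and *Flt3* had only 3.68 and 1.04 CPM. The 7 markers of this list summed to 54.7 to 84.8 CPM and had r = -0.19 with *Cd74* (permutation p = 0.45). By group they ranged over 59.3 to 75.9 CPM in *Cxcl12* control, 54.7 to 63.8 in *Cxcl12* KO, 61.2 to 77.5 in *Myc* control and 64.6 to 84.8 CPM in *Myc* KO kidneys. None of these markers passed in either cohort or between the control groups by edgeR. Between the KO groups 1 of the 7, *Mrc1*, was called, beside 15.2% of all genes. Of the 4 B cell markers 3 had under 10 reads in every kidney, and the r of their sum with *Cd74* was 0.46 (permutation p = 0.088, adjusted p = 0.34). Their part in the level of *Cd74* was not tested.

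Among the 10 pairs of members, *Cxcr4* and *Cd74* varied together within the groups. Their Pearson r was 0.74 (permutation p = 0.0046, adjusted p = 0.046) and their Spearman rho 0.70 (permutation p = 0.0047, adjusted p = 0.047) over 18 kidneys. Without the 2 kidneys farthest from the median of *Cxcr4*, r was 0.54. Within cohorts it was 0.78 (*Cxcl12*) and 0.72 (*Myc*), 0.76 among the 12 kidneys of 5% or more unmapped reads and 0.81 among the other 6. No other pair passed, with r from -0.47 for *Cxcl12* and *Ackr3* to 0.31 for *Ackr3* and *Mif*.

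Other genes with highly similar patterns were named by the same rule. *Cxcr4* was most like *Cd9*, *Ctsd*, *Klf2*, *Ccn2* and *Unc45b*, with r from 0.87 to 0.88 over 18 kidneys. *Ackr3* was most like *Chchd3*, *Ndufs1*, *Uqcrc2*, *Etfa* and *Maip1*, which encode mitochondrial proteins, with r from 0.86 to 0.87. *Cxcl12* was most like *Sned1*, *Taf4b*, *Osmr*, *Phyhip* and *Ppp1r9a*, with r from 0.81 to 0.84. *Ctsd*, a lysosomal protease, was thus on the lists of both *Cxcr4* and *Cd74*. These likenesses share libraries and depth and are given as a description.

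Among 40 relations of members with marker lists, 1 passed by Pearson's r and none by Spearman's rho. *Ackr3* was lower where the 4 podocyte markers were higher, with r = -0.78 (permutation p = 0.00045, adjusted p = 0.018) and rho = -0.69 (permutation p = 0.0027, adjusted p = 0.11) over 18 kidneys with the group means removed. It was -0.61 without the 2 kidneys farthest from the median of *Ackr3*, -0.81 among the 12 kidneys of 5% or more unmapped reads and -0.70 among the other 6. *Cxcl12* had r = 0.65 (permutation p = 0.010, adjusted p = 0.20) with the 5 stromal markers, which did not pass.

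The other genes around the axis are read beside the share of all genes called, 0.0% in the *Cxcl12* cohort and 1.65% in the *Myc* cohort. Of 6 alternative ligands and receptors tested in each cohort, 0 passed the edgeR test, and their median log2 fold changes were 0.11 in the *Cxcl12* cohort and 0.15 in the *Myc* cohort. *Cxcl14* and *Adm*, the most abundant of them with mean levels of 80.7 and 44.1 CPM, encode a chemokine and a vasodilator peptide. *Cxcr2* had the largest log2 fold change of the 6 in both cohorts. It was 1.74 (standard error 0.61, adjusted p = 0.28, edgeR) in the *Cxcl12* cohort and 0.86 (standard error 0.40, adjusted p = 0.23) in the *Myc* cohort. Between the KO groups, *Cxcr2* and *Cxcl14* were lower in *Cxcl12* KO kidneys, by -1.52 and -0.59 (adjusted p = 0.039 and 0.031, edgeR). These were 2 of the 6, beside 15.2% of all genes. Among 5 tested proteases that cleave CXCL12 or its relatives, 0 passed, the most abundant being *Cpm* with 69.1 CPM and *Dpp4* with 54.2 CPM. *Mmp9*, a metalloproteinase of neutrophil granules, was lower in *Cxcl12* control than in *Myc* control kidneys (log2 difference -2.34, adjusted p = 0.018, edgeR, and 0.059 by limma voom). It was 1 of 5 proteases called there, beside 1.99% of all genes, and the call held in 15 of 18 fits without 1 kidney. Between the KO groups 3 of the 5 proteases were called, all lower in *Cxcl12* KO kidneys, beside 15.2% of all genes.

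Of 19 genes of receptor signalling, all tested, 1 was called in the *Myc* cohort and 0 in the *Cxcl12* cohort, beside the 1.65% and 0.0% of all genes. It was *Rgs16*, a GTPase-activating protein that shuts off G protein signalling of chemokine receptors, with 12.3 CPM in *Myc* KO and 7.14 CPM in *Myc* control kidneys on average. It was higher by 0.79 on the log2 scale (standard error 0.18, adjusted p = 0.047, edgeR), and the call was lost in 8 of 10 fits without 1 kidney. It was also lost in the fit over all 18 kidneys (adjusted p = 0.066, edgeR), in the first-strand column (0.056), among kidneys of 5% or more unmapped reads (0.089) and among those under 5% (0.58). In the *Cxcl12* cohort *Rgs16* had a log2 fold change of 0.34 (adjusted p = 0.69, edgeR), and the difference between the deletions was -0.45 (adjusted p = 0.72). The most abundant genes of this list were *Stat3* with 382 CPM and the G protein subunit *Gnai2* with 276 CPM. Between the control groups, 2 of the 19 genes were called, beside 1.99% of all genes. These were *Rgs1* and *Pik3cg*, both typical of leukocytes. They were lower in *Cxcl12* control kidneys, by -2.12 (adjusted p = 0.028, edgeR) and -1.24 (adjusted p = 0.018). *Rgs1* did not pass with limma voom (adjusted p = 0.10). The call of *Rgs1* held in 13 of 18 fits without 1 kidney and that of *Pik3cg* in 15. The adjusted p reached 0.16 and 0.10 (edgeR). Between the KO groups 5 of the 19 genes were called, all lower in *Cxcl12* KO kidneys, beside 15.2% of all genes.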

How the data were processed

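RNA of 18 whole kidneys, 1 per mouse, was analysed in 2 cohorts of KO and control littermates. Per the labels, the authors trimmed reads with Trimmomatic 0.32, aligned them with STAR 2.4.0 to GRCm38 and deposited raw read counts per gene in an unstranded and 2 stranded columns, without normalization. The unstranded column was used, since each stranded column held 51.8% to 52.8% of it. The study corrected a batch that its methods do not name, and this correction is not in the counts.

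Genes were named with GENCODE vM21 (45143 of 45706 matched, and all 90 list genes). The quasi-likelihood test of edgeR 4.0.16 (R 4.3.3) compared KO and control in each cohort after filterByExpr and TMM scaling. Differences between cohorts came from a fit of 4 group means over all 18 kidneys. Adjusted p-values (Benjamini-Hochberg) of edgeR and limma voom cover all genes tested. DESeq2 by its default gave some genes no adjusted p, and its shares and adjusted p rest on the remaining genes. In the *Myc* cohort these were 12906, against 14936 with edgeR. A standard error in edgeR is the log2 fold change divided by the square root of F. CPM and RPKM are TMM-scaled, and log2 CPM used a prior count of 2. Exact two-sided permutation tests compared mean log2 CPM over all splits of the kidneys. Correlations used 100000 permutations of kidneys within groups. Alternatives were DESeq2 1.42.0, limma 3.58.1 (voom), other scalings, no filter, stranded columns, a replicate block, a covariate for under 5% unmapped reads, subsets by this share, and leaving out each kidney. Tables were made with pandas 2.3.3 and scipy 1.17.1 under Python 3.11.15.

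The members and lists were chosen with earlier results of these data known. The genes named were the members, the 5 genes most like each among genes with a mean of at least 1 CPM, list genes with an adjusted p under 0.05 in either cohort, and the 2 most abundant genes of each list. Other genes were named after their values had been seen. The groups' mice are separate animals by their labels, and in all 33 pairs of kidneys of a group the counts differed by more than sampling noise (chi-square per degree of freedom at least 5.77). The fits were also run on simulated data with known changes, and the outcome is not given here. *Cxcr4*, with as few as 77 reads in 1 kidney (*Cxcl12* control 1), is the least precise member.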

Additional observations from a re-analysis of the deposited data

Results flagged for a closer look

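In 15 groups of 5 kidneys tested member by member, 2 had a highest kidney whose gap to the next was larger than a 95% criterion on the range allows, and chance alone gives about 1 in 20. *Ackr3* in *Myc* control kidneys was the first: *Myc* control 4 had 73.0 CPM and the next kidney 49.6 CPM, a gap of 0.733 of the range. *Cd74* in *Cxcl12* KO kidneys was the second: *Cxcl12* KO 3 had 120 CPM and the next 78.4 CPM, a gap of 0.832 of the range. *Cxcl12* KO 3 also had the highest *Cxcr4* of its group, 12.2 CPM.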

How the results depend on the processing

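The direction of *Cxcl12* in its own cohort, of *Cxcr4* and *Ackr3* in both cohorts, and of *Cxcr4* and *Cd74* between the control groups and between the KO groups was the same in every alternative run for them. The number of genes called in the *Cxcl12* cohort, 0, became 353 with DESeq2, 17 with library size alone, 214 without a low-count filter, 9 in the first-strand column, 123 with the unmapped-read covariate, 80 among kidneys of 5% or more unmapped reads, 25 in the fit over all 18 kidneys and 0 to 15 without 1 kidney (15 without *Cxcl12* KO 1). In the *Myc* cohort, 246 became 1131 with DESeq2, 391 with library size alone, 954 with the covariate, 8 among kidneys of 5% or more unmapped reads, 0 among the 4 others, 683 in the fit over 18 kidneys and 21 (without *Myc* KO 2) to 877 (without *Myc* control 3) without 1 kidney. For the difference between the deletions, 11 became 324 with DESeq2, 3 with limma voom, 133 with the covariate and 1 to 75 without 1 kidney. Between the control groups 316 became 801 with DESeq2 and 49 to 611 without 1 kidney, and between the KO groups 2416 became 3030 with DESeq2, 3379 with the covariate and 1324 to 2948 without 1 kidney.

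*Cxcl12* in its cohort passed with DESeq2 (log2 fold change -0.73) and without a filter (-0.73), and its difference between the deletions with DESeq2 (-0.86). *Cxcr4* in the *Myc* cohort passed with DESeq2 (0.78), in the second-strand column (0.84), with the covariate (0.77) and in the fit over 18 kidneys (0.78), and without 1 kidney it was 0.66 to 0.96. *Cd74* between the control groups did not pass with limma voom (-0.73). Without 1 kidney, the difference between the control groups was -1.37 to -1.04 for *Cxcr4* and -0.85 to -0.65 for *Cd74*, and that between the KO groups 0.33 to 0.49 for *Mif* and -0.64 to -0.42 for *Cxcl12*.

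Values near 0 changed sign. *Mif* in the *Cxcl12* cohort was 0.00031 without a filter, 0.069 in the first-strand column, 0.11 with the covariate, 0.10 among kidneys of 5% or more unmapped reads, 0.0028 in the fit over 18 kidneys and -0.053 to 0.050 without 1 kidney. *Cd74* there was 0.022 with the covariate, 0.016 among kidneys of 5% or more unmapped reads and -0.24 to 0.015 without 1 kidney. In the *Myc* cohort, among kidneys under 5% unmapped reads, *Cd74* was 0.18 and *Cxcl12* -0.031. None of these passed the edgeR test, and the causes were not tested. For the difference between the deletions, leaving out 1 kidney gave -0.12 to 0.17 for *Ackr3* and -0.14 to 0.15 for *Cd74*.

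Same-numbered deviations from the group means correlated with a mean r of 0.067 in 3 pairs of the *Cxcl12* cohort and 0.060 in 5 pairs of the *Myc* cohort. Pairs of unlike number had mean r of -0.017 and -0.014. So few pairs cannot show whether replicate numbers pair the kidneys. With the replicate block, 0 genes of the *Cxcl12* cohort and 18 of the other cohort were called, and 4 for the difference between the deletions, *Cxcr4* in the *Myc* cohort passed (0.80, adjusted p = 0.044, edgeR) and *Rgs16* there did not (adjusted p = 0.096), *Cd74* in the *Cxcl12* cohort was 0.0028, and the differences between the deletions were -0.011 for *Ackr3* and -0.0021 for *Cd74*.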
